A study of Mus musculus with 6 samples.

Results

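Glycolysis turns glucose into pyruvate in the cytoplasm, and cells that divide fast, pluripotent cells among them, draw on it heavily even where oxygen is present. Pyruvate that is not passed to mitochondria is reduced to lactate and carried out of the cell with a proton. Many genes of this route are also targets of the hypoxia-inducible factors (HIFs), heterodimers of an oxygen-labile alpha subunit and ARNT that bind the core sequence ACGTG or GCGTG. When oxygen is present, the EGLN prolyl hydroxylases mark the alpha subunit for destruction through VHL, and EGLN3 and EGLN1 are themselves HIF targets. The genes described are 37 genes of glucose uptake, glycolysis, lactate handling and the hypoxia response, each found by an exact match of its symbol among the 21639 gene entries of the expression table. They fell into 9 groups by the role of their products. At a mean of at least 1 RPKM (reads per kilobase of transcript, scaled to the mapped reads of the library) over the 6 libraries, 35 of the 37 were kept, and Pfkfb4 and Car9 lay below it.

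The study asked how the acidic patch of the histone variant H2A.Z bears on gene expression in mouse embryonic stem cells (ESCs) and during early differentiation. It used KH2 ESCs with a doxycycline-inducible YFP-tagged transgene of wild-type H2A.Z (H2A.Z WT) or of the AP3 mutant (H2A.Z AP3), in which 3 acidic patch residues were exchanged for those of H2A, and a line labelled H2A.Z KD, a knockdown. The transgenes were delivered by lentivirus under a CMV promoter and YFP-positive cells were sorted. Lentiviral hairpins against the 3′ untranslated region of endogenous H2A.Z were also put into the WT and AP3 lines, so these lines are rescue lines and not untreated cells. The labels give the strain V6.5 (129SvJaexC57BL/6) for all 6 libraries. ESCs (D0) were grown with LIF and serum and kept off feeder fibroblasts for the last passage, and embryoid bodies (D3 EBs) formed for 3 days on non-adherent plates without LIF. The labels name the cells of every library embryonic stem cells, D3 included.

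Each line and day was measured in 1 library, so no difference between lines on 1 day, and no day change of a single line, has a replicate check, an SD or a test. The change from D0 to D3 was tested over the 3 lines as pairs, and the lines were tested against each other only as means over both days. A value past 1.5-fold (0.58 on the log2 scale) is a description of a pair of libraries. The share of all entries past 1.5-fold in the same pair, and the share among the 11842 entries with a mean of at least 1 RPKM, stand beside each count as background. The depth estimated from the smallest RPKM steps ranged from about 17500000 to 30800000 reads, with the D0 H2A.Z AP3 library the deepest. H2afz, which encodes H2A.Z, was at 279 RPKM in WT, 343 in KD and 304 in AP3 ESCs, and at 258, 236 and 394 RPKM in the D3 EBs. The entry was thus not lower in the D0 library labelled H2A.Z KD than in the others, and for that reason the library is called KD-labelled here. The entry does not separate transcripts of the transgene from those of the endogenous gene, so its level is no measure of the endogenous gene alone. Where 3 values stand together, they are those of WT, the KD-labelled library (KD for short) and AP3, in that order. The 5 pluripotency markers examined, Pou5f1, Sox2, Zfp42, Esrrb and Klf4, summed to between 999 and 1051 RPKM in ESCs and between 690 and 857 RPKM in EBs. The sums hide members that differed: in the D0 AP3 library Klf4 was at 65.9 RPKM against 121 in WT, Sox2 at 110 against 191 and Pou5f1 at 540 against 421, and the epiblast genes Otx2 and Fgf5 were at 1.37 and 0.106 RPKM against 4.22 and 0.539 in WT. The D0 AP3 library thus stood apart in these markers, and their part in the differences of that library described below was not tested. In bulk RNA, a smaller number of cells of a type and less RNA in each cell cannot be told apart.

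To show the sequence that the hypoxia factors read, the promoters of the genes were taken from RefSeq (GRCm38.p6), as windows from 250 bases before to 50 bases after each annotated start. These coordinates are of a later build than the mm9 positions given for genes elsewhere. Of the 37 genes, 35 matched an entry (Pkm2 as Pkm and Ero1l as Ero1a). The letters ACGTG, searched on both strands, were present in a window of 25 of these 35 genes (71.4%), against 5886 of all 27025 genes (21.8%). The other core form, GCGTG, was also present in 25 of 35 (71.4%), against 35.2% of all genes, and one or the other form in 32 of 35 (91.4%), against 46.7%. The longer TACGTG, which contains ACGTG, was found in 10 of the 35 (28.6%) and in 3.67% of all genes, and the E-box CACGTG, which also contains ACGTG, in 5 of the 35 (14.3%) and in 8.09%. CACGTG reads the same on both strands and was matched on each, and ACGTG on one strand can overlap GCGTG on the other. A gene can have several windows. Counted by window, ACGTG was in 57.1% of the 49 windows of the set against 19.6% of all 32851, and GCGTG in 61.2% against 32.4%. Genes of the hypoxia response were chosen into the set, so these shares are not an independent result. The windows of these genes were also richer in G and C, with a median of 62.3% against 52.7% for all windows. A match is a description of the letters and not evidence of binding, which was not measured for these factors.

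The matches shown here are those of genes whose levels the results turn on, each as 25 bases read 5′ to 3′ on the stated strand of GRCm38.p6, with ACGTG in capitals. Of the genes with more than 1 match, Slc16a3, Bnip3, P4ha2 and Slc16a1 are shown with the most upstream one on the plus strand of the genome. Ankrd37 had 2 matches, of which 1 lay too near the window edge to be printed with its flanks. The position is that of the most upstream base of the match, counted along the gene from its start at 0. The first 5 genes were higher past 1.5-fold at D3 in every line, the next 4 were highest in the KD-labelled D3 library, P4ha2 was higher in AP3 than in WT ESCs, and Car9 holds a match but was expressed at a low level.
Slc16a3, chr11:120949030-120949054, plus strand, position -27: ggcagcggtgACGTGcgcgggggac
Bnip3, chr7:138909600-138909624, plus strand, position -108: agcgtgtggcACGTGcggcgcgtgc
P4ha1, chr10:59323270-59323294, minus strand, position -16: agccctcgctACGTGcgctctgtca
Egln3, chr12:54204089-54204113, minus strand, position -229: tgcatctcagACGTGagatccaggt
Aldoa, chr7:126799366-126799390, plus strand, position -126: ccccgctaggACGTGactcgagcca
Egln1, chr8:124949308-124949332, minus strand, position -68: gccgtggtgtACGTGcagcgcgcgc
Ankrd37, chr8:45999842-45999866, minus strand, position -6: gtgtttgggtACGTGaggccgcagc
Ero1l, chr14:45318621-45318645, plus strand, position -63: tcccctgcggACGTGcagcggcgcg
Slc16a1, chr3:104638455-104638479, plus strand, position -199: gcgccgggtcACGTGgcgggaaggg
P4ha2, chr11:54100836-54100860, plus strand, position -78: tgcatcgcatACGTGcagcgcgtgg
Car9, chr4:43506998-43507022, minus strand, position -18: gacgggctgtACGTGcatcggaaat
The core is preceded by T in the windows of P4ha1, Egln1, Ankrd37, P4ha2 and Car9. Tpi1 and Ldhb, which were also higher at D3 in every line, had no ACGTG in this window.

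The genes spanned more than 3 orders of magnitude. Pkm2, the pyruvate kinase entry, was the most abundant on average, at 1289, 1485 and 1132 RPKM in WT, KD and AP3 ESCs, which placed it between rank 18 and rank 45 of all entries at D0. Gapdh, which was above it in AP3 ESCs, Aldoa, Eno1, Pgk1 and Ldha followed, from 311 RPKM upwards in each library. At the other end, Pfkfb4 lay between 0.523 and 0.790 RPKM and Car9 between 0.680 and 1.06 RPKM. Summed over the 37 genes, the values made up 1.55%, 1.72% and 1.48% of all RPKM in WT, KD and AP3 ESCs and 2.09%, 2.29% and 2.27% in the EBs. Gapdh, Pgk1, Aldoa, Eno1, Tpi1, Pgam1, Pkm2 and Ldha have near-identical processed copies elsewhere in the mouse genome and reads were allowed to match several places, so the values of these genes are uncertain. Pkm2 is 1 entry, and the M1 and M2 splice forms were not told apart.

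**Figure D1:**
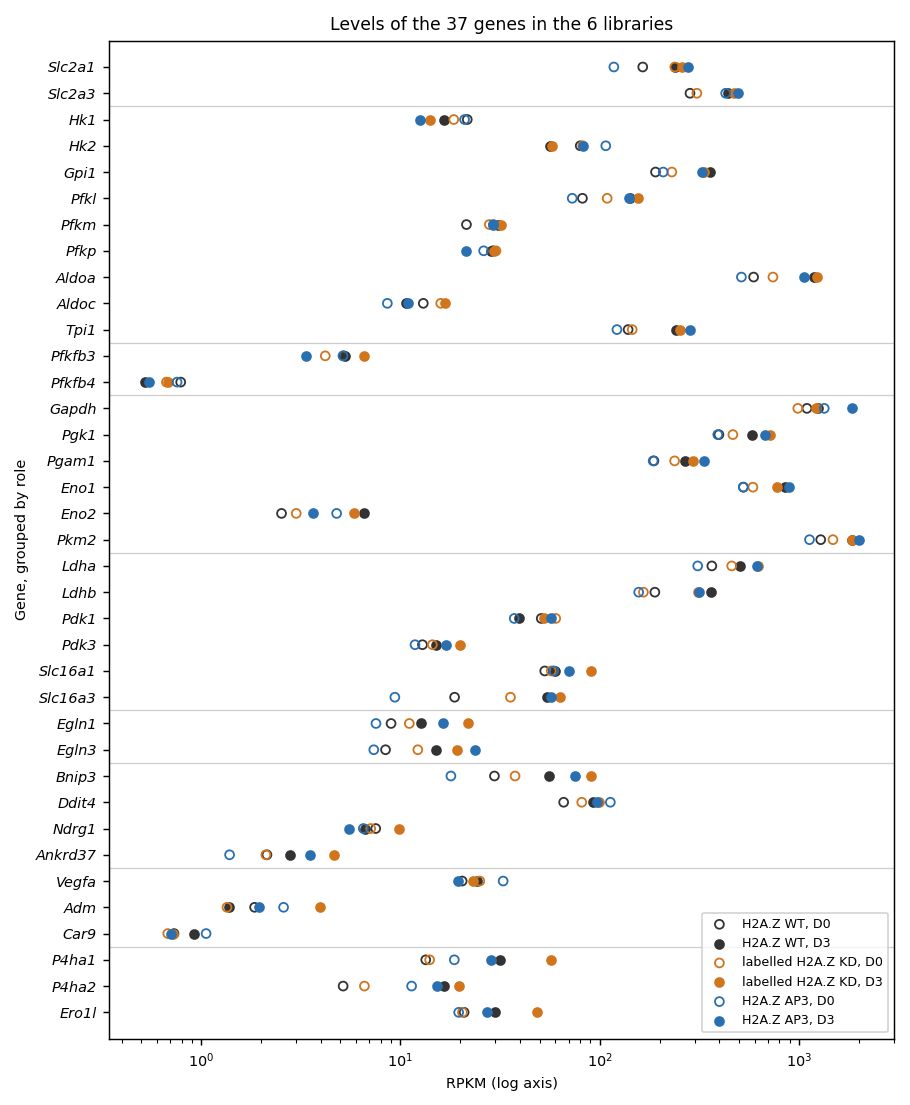
RPKM of each of the 37 genes (log axis) in the 6 libraries, open circles for D0 ESCs and filled circles for D3 EBs, with grey lines between role groups. The enzymes of lower glycolysis other than Eno2 sit at the right, from 186 RPKM upwards in every library, and for many genes the filled circles lie to the right of the open ones.

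Between ESCs and EBs, most of the genes were higher at D3. In the WT line, 13 of 37 were higher past 1.5-fold and 1 was lower, where 14.1% of all entries were higher and 16.5% lower, and 11.4% and 9.53% of the entries with a mean of at least 1 RPKM. In the KD-labelled line, 17 were higher and 0 lower (14% and 16.2% of all entries, 11.5% and 8.86% of those with a mean of at least 1 RPKM). In the AP3 line, 18 were higher and 3 lower (14.7% and 16.3%, and 10.8% and 11.5% with the minimum). The median log2 change of the 37 genes was 0.52 in each of the 3 lines, while the median of all entries was 0.00 and that of entries with a mean of at least 1 RPKM was between 0.04 and 0.05. In all 3 lines, 23 of the 37 were above 0, against 27.8% of entries with a mean of at least 1 RPKM. Only Hk1, Hk2 and Pfkp among the 37 were below 0 in every line.

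The genes higher past 1.5-fold in all 3 lines numbered 7 of 37, where 3.48% of all entries and 3.18% of those with a mean of at least 1 RPKM did the same. They were Aldoa and Tpi1 of upper glycolysis, Ldhb and Slc16a3 of lactate handling, Egln3, Bnip3 and P4ha1. Without the WT line, without the KD-labelled line or without the AP3 line, the count was 10 in each case, where 5.32%, 6.05% and 6.51% of all entries did the same. After centring on the median of entries with a mean of at least 1 RPKM, or after scaling to summed RPKM, P4ha1 fell short in AP3 and 6 were left.

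With the lines as 3 pairs, the day change of 35 genes was tested by limma, fitted over the 11842 entries with a mean of at least 1 RPKM and with Benjamini-Hochberg adjustment over them. At an adjusted p under 0.05, 17 genes were higher at D3 and 1, Hk2, was lower, where 5.29% of the entries tested were higher and 5.33% lower. The 17 were Gpi1, Pfkl, Aldoa and Tpi1 of upper glycolysis, Pgk1, Pgam1 and Eno1 of lower glycolysis, Ldha, Ldhb and Slc16a3 of lactate handling, Egln1, Egln3, Bnip3, Ankrd37, P4ha1, P4ha2 and Ero1l. Ldhb had the lowest adjusted p in this limma fit, 0.00395, at a log2 change of 0.95 (SE 0.12), and Slc16a3 the highest change at 1.66 (SE 0.29, adjusted p = 0.0137). Hk2 changed by -0.47 (SE 0.11, adjusted p = 0.041 by limma), in the same direction in 3 of 3 lines. Gapdh, Pkm2 and the glucose transporters did not pass, with adjusted p of 0.21 for Gapdh, 0.070 for Pkm2, 0.096 for Slc2a1 and 0.072 for Slc2a3 in the same fit. With no minimum level, 12 of the 37 were higher and 0 lower, against 2.56% and 3.36% of the entries. Without the WT line the fit over 2 pairs gave 4 higher and 0 lower (1.05% and 1.88% of the entries tested), without the KD-labelled line 9 and 0 (2.55% and 3.36%), and without the AP3 line 16 and 1 (8.46% and 6.97%). The pairs are lines of different genotype, so the p-values measure the spread of the day change between these lines. For each gene that spread was moderated with the trend over all entries tested, which raised the degrees of freedom from 2 to about 7.5.

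**Figure D2:**
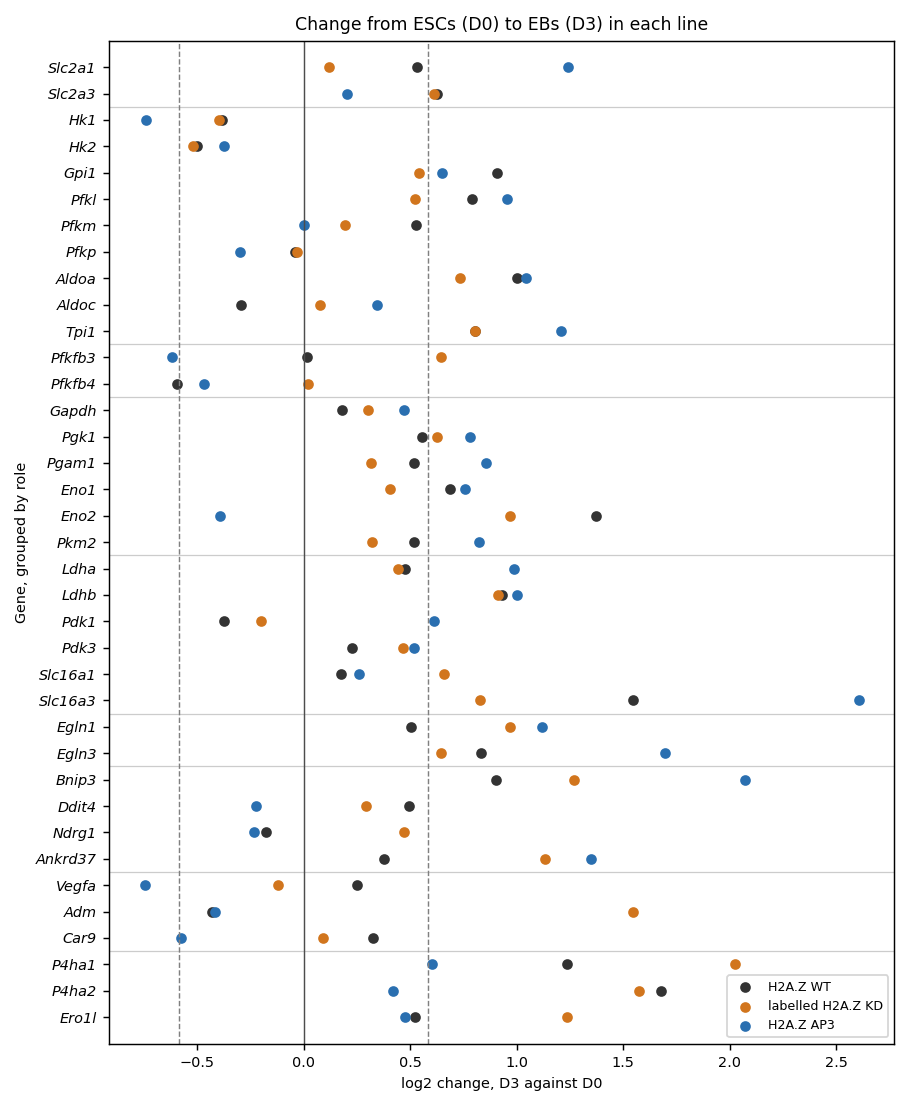
Change from D0 to D3 of each gene on the log2 scale in the 3 lines, with dashed lines at 1.5-fold in either direction. Slc16a3 in the H2A.Z AP3 line lies farthest to the right at 2.61, and Vegfa and Hk1 in the same line lie farthest to the left, both at about -0.74.

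Glucose enters these cells through the facilitative transporters GLUT1 (Slc2a1) and GLUT3 (Slc2a3). Slc2a3 was at 284, 308 and 430 RPKM in WT, KD and AP3 ESCs and at 439, 471 and 495 RPKM in the EBs. Slc2a1 was at 165, 239 and 118 RPKM in ESCs and 238, 259 and 279 RPKM in EBs. The D0 AP3 library therefore had the highest value of one transporter and the lowest of the other among the ESC libraries. Slc2a3 was higher there than in WT by 0.60 on the log2 scale (0.51, short of 1.5-fold, after scaling to summed RPKM), and Slc2a1 was lower than in the KD-labelled library by 1.02 on that scale. Of the summed RPKM of the pair, Slc2a1 made up 36.7%, 43.7% and 21.5% in WT, KD and AP3 ESCs and between 35.1% and 36.0% in the EBs, so the lines differed at D0 and hardly at D3.

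The first steps of glycolysis phosphorylate glucose and split it into triose phosphates. Hexokinase was mostly Hk2, which gave between 77.3% and 86.8% of the Hk1 and Hk2 sum in every library. Hk2 was at 80.0, 82.3 and 108 RPKM in ESCs and 56.5, 57.5 and 82.9 RPKM in EBs. Hk1 went from 21.7, 18.5 and 21.0 RPKM to 16.6, 14.1 and 12.6 RPKM, past 1.5-fold in the AP3 line (log2 change -0.74). Both hexokinases were thus lower at D3, short of 1.5-fold for Hk2, while Gpi1, Pfkl, Aldoa and Tpi1 further down were higher.

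Glucose-6-phosphate isomerase, Gpi1, was at 191, 231 and 209 RPKM in ESCs and 358, 336 and 327 RPKM in EBs, past 1.5-fold in WT and AP3. Phosphofructokinase commits the sugar to glycolysis, and its liver-type gene Pfkl was at 82.1, 109 and 72.9 RPKM in ESCs and 142, 157 and 141 RPKM in EBs. Pfkm ranged from 21.5 to 32.0 RPKM and Pfkp from 21.3 to 30.2 RPKM, with no change past 1.5-fold for either in any comparison. Pfkl accordingly made up 61.8%, 65.2% and 56.8% of the 3 genes at D0 and 70.5%, 71.8% and 73.6% at D3. The share was higher at D3 in every line.

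Aldolase A, Aldoa, showed the same direction at a higher level, with 593, 742 and 515 RPKM in ESCs and 1190, 1235 and 1064 RPKM in EBs (log2 changes of 1.00, 0.74 and 1.05). The brain-type aldolase Aldoc was at 13.0, 15.9 and 8.60 RPKM in ESCs and 10.6, 16.8 and 10.9 RPKM in EBs, and made up at most 2.15% of the pair. Aldoc was the one gene of this group past 1.5-fold between lines on both days: lower in AP3 than in WT at D0, higher in the KD-labelled library than in WT at D3, and lower in AP3 than in that library on both days. Triose phosphate isomerase, Tpi1, was at 139, 146 and 122 RPKM in ESCs and 243, 255 and 283 RPKM in EBs (0.81, 0.80 and 1.21). Every D3 value of Aldoa and Tpi1 was above every D0 value.

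Pfkfb3 and Pfkfb4 encode the bifunctional enzymes that set fructose 2,6-bisphosphate, the activator of phosphofructokinase. Pfkfb3 was at 5.20, 4.20 and 5.15 RPKM in ESCs and 5.25, 6.57 and 3.35 RPKM in EBs. It was higher at D3 by 0.64 in the KD-labelled line and lower by 0.62 in the AP3 line on the log2 scale, and level in WT at 0.02. For these low genes an interval was computed from estimated reads, which covers counting error only: the D3 over D0 ratio of Pfkfb3 was 1.56 (95% interval 1.39 to 1.77) in KD and 0.651 (0.572 to 0.738) in AP3. Pfkfb4, with values of 0.790, 0.670 and 0.757 RPKM in ESCs and 0.523, 0.679 and 0.547 RPKM in EBs, was the 1 gene lower past 1.5-fold in WT, but its ratio of 0.662 had an interval from 0.409 to 1.03. That difference was not detectable at this depth.

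The later steps of glycolysis yield ATP and pyruvate, and their genes included the most abundant of the set. Gapdh was at 1099, 989 and 1343 RPKM in ESCs and 1246, 1221 and 1859 RPKM in EBs. The AP3 library had the highest Gapdh value on each day, past 1.5-fold at D3 against the KD-labelled library (log2 0.61) and just short of it against WT (0.58). Gapdh is widely used as a reference gene. Actb, another one, was at 958, 957 and 714 RPKM in ESCs, lowest in AP3, and at 808, 814 and 1054 RPKM in EBs, highest in AP3. Tubb5 was at 573, 589 and 478 RPKM and then at 649, 670 and 765 RPKM. Cltc was near level between WT and AP3, at 123, 108 and 118 RPKM and then at 123, 164 and 126 RPKM.

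Pgk1, phosphoglycerate kinase, was at 397, 467 and 392 RPKM in ESCs and 584, 720 and 674 RPKM in EBs. Pgam1 was at 187, 238 and 186 RPKM and then at 268, 296 and 336 RPKM. Eno1, the general enolase, went from 527, 589 and 527 RPKM to 849, 780 and 891 RPKM. All 3 genes had each D3 value above each D0 value, and in the AP3 line each was past 1.5-fold, with log2 changes of 0.78, 0.85 and 0.76. Pkm2, like Pgam1, was past 1.5-fold in AP3 only, at 1844, 1852 and 2000 RPKM at D3 (0.52, 0.32 and 0.82), but whether the lines differ in this change was not tested.

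Eno2, the neuronal enolase, was a small part of the enolase sum, between 0.408% and 0.900%, and in the AP3 line its direction was opposite to that of Eno1. It was at 2.53, 3.0 and 4.79 RPKM in WT, KD and AP3 ESCs and at 6.55, 5.87 and 3.65 RPKM in the EBs. The AP3 library had the highest value at D0 and the lowest at D3, with ratios to WT of 1.89 (95% counting interval 1.54 to 2.33) and 0.557 (0.469 to 0.661). Eno2 lies at chr6:124710073-124719527 on the minus strand of mm9, close to Tpi1 at chr6:124758959-124764314.

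Lactate dehydrogenase interconverts pyruvate and lactate. Ldha, the muscle-type subunit, was at 366, 461 and 311 RPKM in ESCs and 510, 627 and 617 RPKM in EBs, past 1.5-fold in AP3 (log2 changes of 0.48, 0.44 and 0.99). Ldhb, the heart-type subunit, was at 190, 166 and 157 RPKM in ESCs and 361, 312 and 315 RPKM in EBs (0.93, 0.91 and 1.00). The Ldha share of the pair was 65.9%, 73.5% and 66.4% at D0 and 58.5%, 66.7% and 66.2% at D3. It was lower at D3 by several points in WT and in the KD-labelled line and nearly level in AP3.

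Pyruvate dehydrogenase kinases hold pyruvate back from mitochondrial oxidation. Pdk1 was at 51.0, 60.3 and 37.3 RPKM in ESCs and 39.3, 52.4 and 57.1 RPKM in EBs, so that it was lower at D3 in WT and KD and higher past 1.5-fold in AP3 alone (0.61), which fell short under centring on the median (0.57) and scaling to summed RPKM (0.52). Pdk3 stayed between 11.9 and 20.03 RPKM in all libraries.

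The monocarboxylate transporters MCT1 (Slc16a1) and MCT4 (Slc16a3) carry lactate across the plasma membrane, and MCT4 is the form linked to lactate export. Slc16a3, at chr11:120809798-120820314 on the plus strand of mm9, was at 18.7 RPKM in WT, 35.7 in the KD-labelled library and 9.39 in AP3 ESCs. In the EBs it was at 54.6, 63.5 and 57.1 RPKM. The D0 libraries thus spread over 1.93 on the log2 scale between KD and AP3, and the D3 libraries lay close together and above all of them. Against WT at D0, Slc16a3 was lower by 1.00 in AP3 and higher by 0.93 in KD on the log2 scale, and the D3 over D0 changes were 1.54, 0.83 and 2.61. Slc16a1 was at 53.1, 57.3 and 58.9 RPKM in ESCs and 59.9, 90.4 and 70.4 RPKM in EBs, highest in the KD-labelled D3 library. The Slc16a3 share of the pair was 26.1%, 38.4% and 13.8% at D0 and 47.7%, 41.2% and 44.8% at D3.

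**Figure D3:**
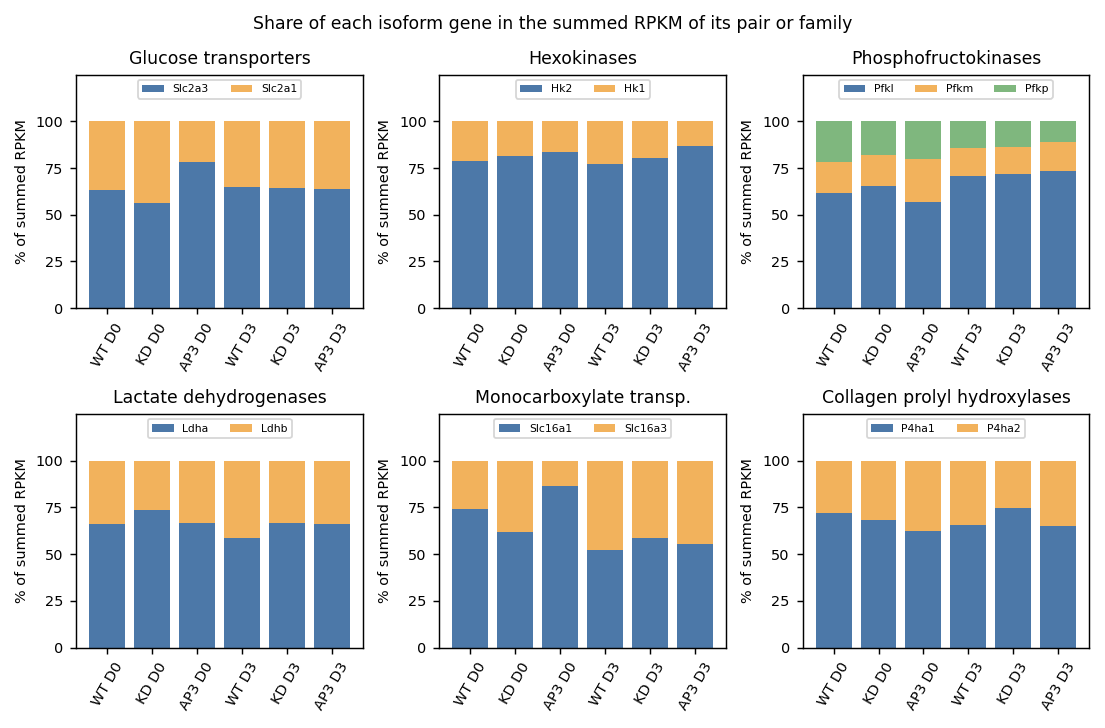
Share of each gene in the summed RPKM of its pair or family (percent, stacked bars from 0 to 100) in the 6 libraries, where KD is the KD-labelled library. The D0 AP3 bars stand apart for the glucose transporters (Slc2a3 78.5%) and the monocarboxylate transporters (Slc16a1 86.2%), and the 3 D3 bars of the glucose transporters are nearly equal.

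Of the HIF prolyl hydroxylases, Egln1 was at 8.98, 11.1 and 7.55 RPKM in ESCs and 12.7, 21.7 and 16.4 RPKM in EBs. Egln3 was at 8.43, 12.2 and 7.36 RPKM in ESCs and 15.02, 19.1 and 23.8 RPKM in EBs (0.83, 0.65 and 1.69). Both genes had all 3 EB values above all 3 ESC values, with AP3 lowest at D0. At D3, Egln1 was higher in the KD-labelled library than in WT (0.77) and Egln3 higher in AP3 than in WT (0.67), past 1.5-fold in each case.

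Bnip3, a mitochondrial protein of mitophagy, at chr7:146082519-146101189 on the minus strand of mm9, was at 29.7, 37.7 and 17.9 RPKM in ESCs and 55.5, 90.7 and 75.3 RPKM in EBs (log2 changes of 0.90, 1.27 and 2.07). It was lower in AP3 than in WT at D0 (log2 change -0.73) and higher in the KD-labelled library than in WT at D3 (0.71). Ankrd37, a small ankyrin repeat protein, was at 2.14, 2.11 and 1.39 RPKM in ESCs and 2.78, 4.63 and 3.54 RPKM in EBs. Its order of the lines was that of Bnip3 at D3, but its D0 ratio of AP3 to WT, 0.649, had a counting interval from 0.402 to 1.05, so the difference was not detectable at this depth.

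Ddit4 (REDD1), an inhibitor of mTORC1, was at 66.0, 81.4 and 113 RPKM in ESCs and 93.0, 99.6 and 96.9 RPKM in EBs. It was higher in AP3 than in WT ESCs by 0.78 on the log2 scale, opposite to Bnip3, and the EB libraries lay close together. Ndrg1 stayed between 5.54 and 9.84 RPKM and was past 1.5-fold in 1 comparison, lower in AP3 than in the KD-labelled library at D3 (-0.83).

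The 3 secreted and surface products shared no direction from D0 to D3 in WT or in the KD-labelled line. In AP3 all 3 were lower at D3, with log2 changes of -0.74 for Vegfa, -0.41 for Adm and -0.58 for Car9, and all 3 were above WT in ESCs (0.68, 0.48 and 0.53). Only the Vegfa changes were past 1.5-fold. The counting intervals of the Adm and Car9 ratios held 1 in both cases (D3 over D0 0.535 to 1.05 and 0.424 to 1.06, AP3 over WT 0.983 to 2.03 and 0.904 to 2.37), so these changes were not detectable at this depth. Vegfa, the angiogenic growth factor, was at 20.4, 25.1 and 32.8 RPKM in ESCs and 24.3, 23.0 and 19.6 RPKM in EBs. AP3 was highest at D0, by 0.68 over WT on the log2 scale, and lowest at D3. Adm, which encodes the peptide adrenomedullin, was at 1.86, 1.35 and 2.59 RPKM in ESCs and 1.38, 3.94 and 1.94 RPKM in EBs. The KD-labelled D3 library had 2.86 times the WT value (95% counting interval 2.00 to 4.19), the largest difference of any of the 37 between lines on a day apart from that of Slc16a3 between AP3 and KD at D0. Car9, a surface carbonic anhydrase and a classical marker of hypoxic cells, stayed at or below 1.06 RPKM, and its AP3 to KD ratio at D0 of 1.56 had a counting interval from 0.988 to 2.59.

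The last group hydroxylates and folds proteins on their way out of the cell. P4ha1 and P4ha2 encode the catalytic subunits of collagen prolyl 4-hydroxylase, and Ero1l the oxidase that drives disulfide bond formation in the endoplasmic reticulum. P4ha1, at chr10:58786044-58836051 on the plus strand of mm9, was at 13.4, 14.0 and 18.7 RPKM in ESCs and 31.6, 57.1 and 28.4 RPKM in EBs. P4ha2, at chr11:53914426-53945169, was at 5.16, 6.60 and 11.4 RPKM in ESCs and 16.5, 19.7 and 15.2 RPKM in EBs. Ero1l was at 20.9, 20.5 and 19.6 RPKM in ESCs and 30.0, 48.3 and 27.3 RPKM in EBs. All 3 genes were highest in the KD-labelled D3 library, and both prolyl hydroxylases were highest in AP3 among the ESC libraries. From D0 to D3, P4ha1 was higher by 1.24, 2.02 and 0.60 on the log2 scale. Against WT, P4ha2 was past 1.5-fold in AP3 ESCs (1.14), and P4ha1 and Ero1l in the KD-labelled EBs (0.85 and 0.69). AP3 against the KD-labelled library was past it for P4ha2 in ESCs (0.79) and for P4ha1 and Ero1l in EBs (-1.01 and -0.82). The P4ha1 share of the P4ha1 and P4ha2 sum lay between 62.1% and 74.4%.

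The summed markers of endoderm ran in the order of P4ha1 and P4ha2, but not every single marker did. The 5 endoderm markers Gata4, Gata6, Sox17, Afp and Ttr summed to 7.18, 10.4 and 24.6 RPKM in WT, KD and AP3 ESCs and to 33.0, 59.3 and 31.9 RPKM in the EBs, in the same order as P4ha1 and P4ha2 on each day, while Ero1l ran in the opposite order among the ESC libraries. Of these, Afp and Ttr were at 0 or below 0.05 RPKM in every ESC library, and Gata4 was at 3.24, 4.94 and 12.1 RPKM in ESCs and 13.7, 23.2 and 13.3 RPKM in EBs. Gata6 was at 2.96, 4.38 and 9.84 RPKM in ESCs and 11.1, 17.4 and 12.3 RPKM in EBs, where AP3 was above WT, unlike in the sum. Sox17 was at 0.974, 0.977 and 2.70 RPKM and then at 5.84, 7.75 and 4.96 RPKM. The 6 fibroblast markers summed to 25.8, 22.8 and 42.5 RPKM in WT, KD and AP3 ESCs and to 12.3, 7.13 and 8.94 RPKM in the EBs, with 1 member going the other way. Thy1 was at 1.74, 2.42 and 1.74 RPKM in ESCs and 9.19, 5.48 and 3.56 RPKM in EBs. The collagen genes were highest in AP3 on each day, with Col1a1 at 9.76, 7.42 and 15.5 RPKM in ESCs and 1.54, 0.923 and 2.57 RPKM in EBs, and Col1a2 at 12.9, 11.8 and 22.5 and then at 1.3, 0.591 and 2.36 RPKM. Lum was at or below 0.333 RPKM and Postn was at or below 0.112 RPKM throughout. The part of either cell type in the values of P4ha1, P4ha2, Ero1l or the other genes that stood apart in the D0 AP3 library was not tested. The 5 markers of epiblast and primitive streak summed to between 3.23 and 8.16 RPKM in ESCs and between 25.5 and 35.2 RPKM in EBs, the 3 neural markers to between 11.9 and 23.7 RPKM, and the 3 of endothelium and blood to between 7.37 and 14.4 RPKM, with Hbb-y listed at 0 in every library.

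**Figure D4:**
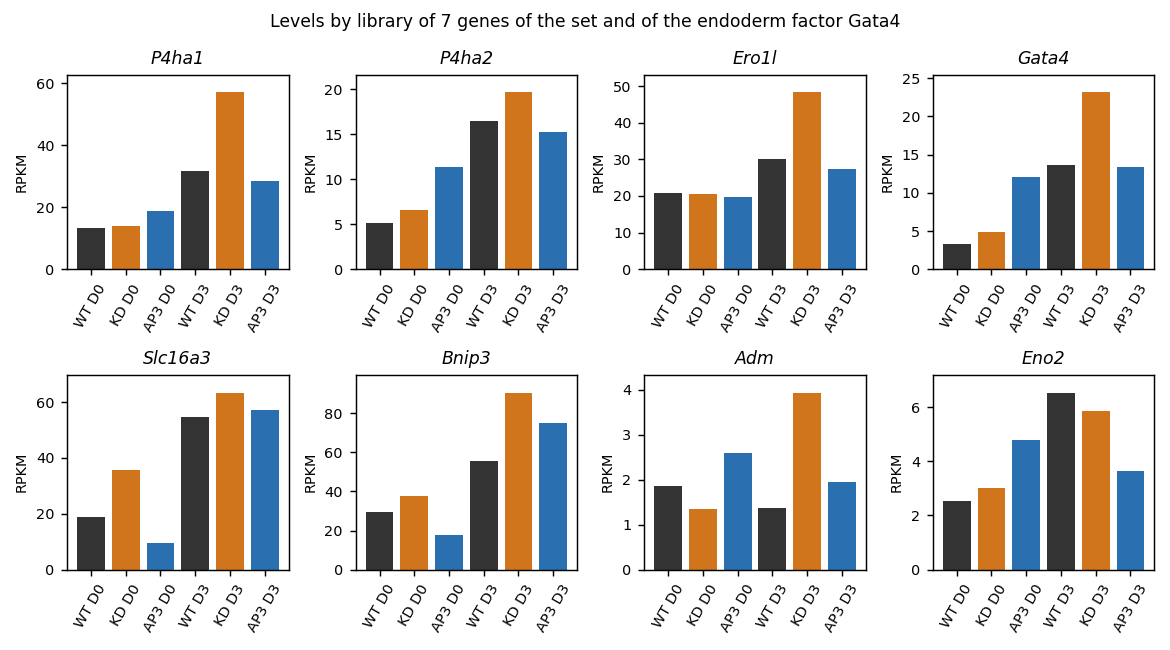
RPKM in each library (bars from 0) of 7 genes of the set and of the endoderm factor Gata4, in black for H2A.Z WT, orange for the KD-labelled library and blue for H2A.Z AP3. P4ha1, Ero1l, Adm and Gata4 peak in the KD-labelled D3 library (57.1, 48.3, 3.94 and 23.2 RPKM), while Eno2 peaks in the D3 WT library at 6.55 RPKM.

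The differences between lines were then counted on each day. In AP3 against WT ESCs, 5 of 37 were higher past 1.5-fold (Slc2a3, Eno2, Ddit4, Vegfa and P4ha2) and 4 lower (Aldoc, Slc16a3, Bnip3 and Ankrd37). The background was 11.1% of all entries higher and 13.9% lower, and 6.8% and 5.49% of entries with a mean of at least 1 RPKM. Among the 35 genes with that mean, the same 5 and 4 made up 14.3% and 11.4%. In the EBs, 1 was higher in AP3 than in WT (Egln3; 10.4% and 4.05%) and 2 were lower (Pfkfb3 and Eno2; 11.7% and 5.21%). The medians of the 37 were -0.06 at D0 and 0.06 at D3.

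In the KD-labelled D0 library, 1 gene was higher than in WT (Slc16a3; 8.96% of all entries and 2.94% with the minimum) and 0 were lower (10.7% and 4.02%). In the EBs, 8 were higher and 0 lower, against 9.41% and 3.23% higher and 11.3% and 4.53% lower in the background. These 8 were Aldoc, Slc16a1, Egln1, Bnip3, Ankrd37, Adm, P4ha1 and Ero1l. They came from 6 of the 9 role groups and from none of the abundant enzymes of lower glycolysis. The medians of the 37 against WT were 0.20 at D0 and 0.14 at D3, where the median of all entries was 0.00. The endoderm marker sum given above was also higher in the KD-labelled than in the WT EBs, at 59.3 against 33.0 RPKM. The 8 genes were picked in this same pair of libraries, and a link to that sum was not tested. In ESCs the sum was higher in AP3 than in WT. There Slc16a1, Adm and P4ha1 lay above WT, and Aldoc, Egln1, Bnip3, Ankrd37 and Ero1l below it.

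AP3 was also compared with the KD-labelled library, a comparison that shares its libraries with those against WT. At D0, 4 genes were higher in AP3 (Eno2, Adm, Car9 and P4ha2; 13.5% of all entries and 10.5% with the minimum) and 7 were lower (Slc2a1, Aldoc, Pdk1, Slc16a3, Egln3, Bnip3 and Ankrd37; 13.5% and 6.13%). With each library scaled to its summed RPKM, these counts became 3 and 11. At D3, 1 was higher (Gapdh; 11.6% and 5.49%) and 7 were lower (Aldoc, Pfkfb3, Eno2, Ndrg1, Adm, P4ha1 and Ero1l; 11.1% and 5.07%). Gapdh lost its place under that scaling and under centring on the median, which left 0 and 7. The median of the 37 was -0.14 at D0 and -0.15 at D3.

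Averaged over both days, the lines were tested against each other by limma with the day as a block. At an adjusted p under 0.05, 0 of the 35 genes tested and 0% of the 11842 entries passed for AP3 against WT, for the KD-labelled line against WT or for AP3 against the KD-labelled line. At an unadjusted p under 0.05, these numbered 2 (Gapdh and Hk2; 5.76% of entries), 2 (Aldoc and Egln1; 2.56%) and 6 (Aldoc, Bnip3, Egln1, Gapdh, Hk2 and Slc16a3; 7.53%). The last count depended on the processing: it was 11 after scaling to summed RPKM (7.49% of entries) and 1 without the day block (2.16%). The test takes a line to differ alike on both days, so a difference on 1 day only, such as that of P4ha2 at D0, enters its error.

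The order of the 3 lines needs no threshold. Among the ESC libraries, AP3 was lowest for 21 of the 37 genes and the KD-labelled library highest for 18, against 36.8% and 29.8% of the entries with a mean of at least 1 RPKM. Among the EB libraries, the KD-labelled one was highest for 21 and WT lowest for 20, against 30.0% and 28.1%.

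**Figure D5:**
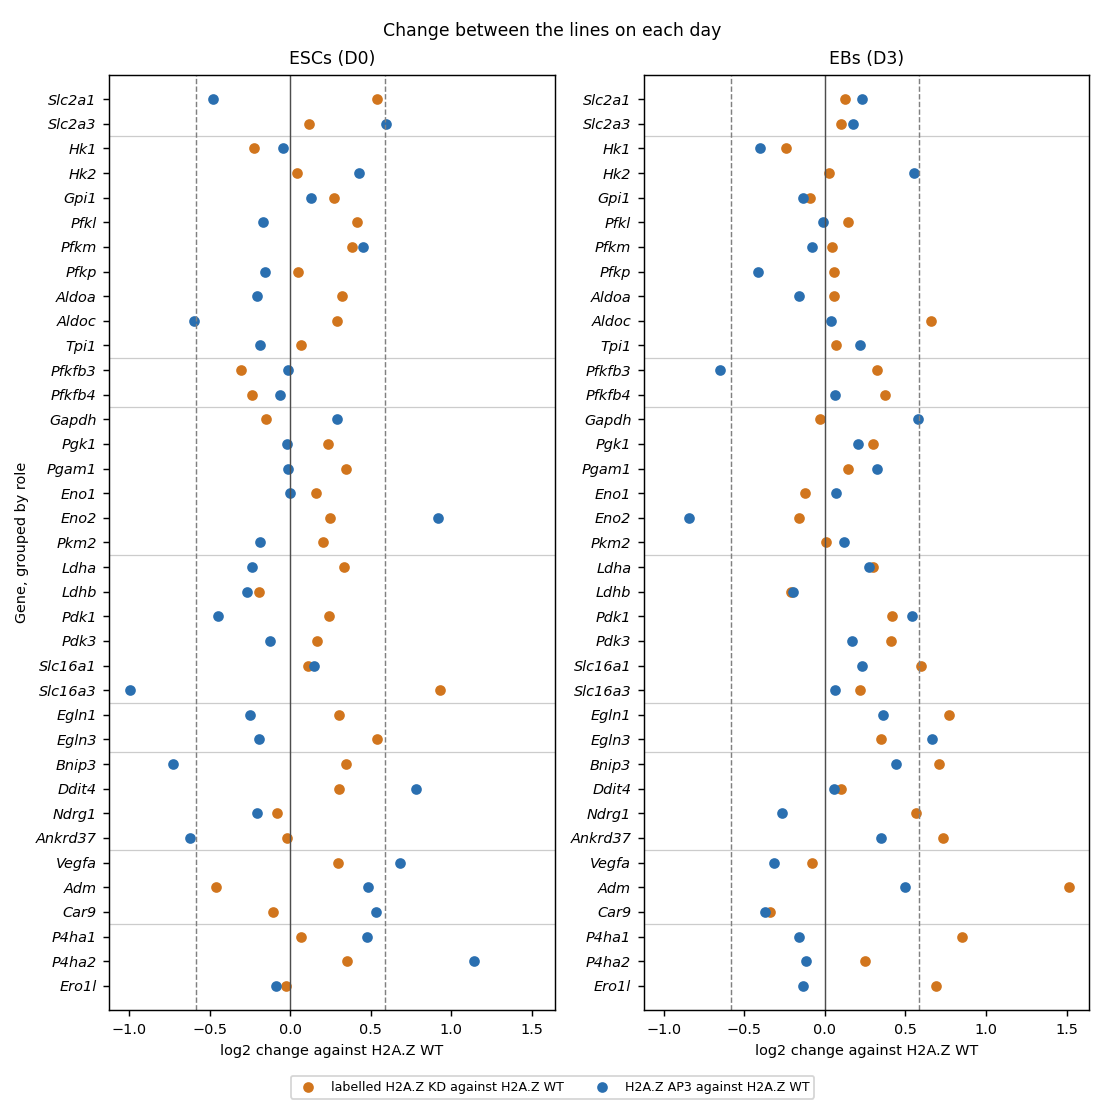
Change of each gene against H2A.Z WT on the log2 scale at D0 (left) and D3 (right), in orange for the KD-labelled library and in blue for H2A.Z AP3, with dashed lines at 1.5-fold. Slc16a3 shows the widest gap at D0, at 0.93 and -1.0, and Adm the highest point at D3, at 1.52.

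The HIF subunits and their regulators were seldom past 1.5-fold. Hif1a was at 33.2, 30.6 and 36.4 RPKM in ESCs and 30.1, 33.4 and 38.0 RPKM in EBs, and Epas1, which encodes HIF-2 alpha, between 10.2 and 14.5 RPKM. Vhl lay between 8.33 and 11.5 RPKM, Arnt between 24.5 and 38.3 RPKM, and Hif1an, the asparaginyl hydroxylase that blocks the HIF transactivation domain, between 13.7 and 17.0 RPKM. Egln2 lay between 13.9 and 21.4 RPKM and was past 1.5-fold in 1 comparison, higher at D3 in WT. Hif3a, between 2.22 and 4.30 RPKM, was higher at D3 in the KD-labelled line. Arnt2, at 1.56, 2.47 and 2.75 RPKM in ESCs and 1.40, 1.54 and 2.48 RPKM in EBs, was the 1 regulator of 8 past 1.5-fold between lines. HIF activity is set largely at the level of protein, which was not measured.

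The other lists are counted over their members with a mean of at least 1 RPKM, and the shares of entries with that mean given above are their background. Of 26 such HIF targets outside the 37, 8 were higher and 6 lower past 1.5-fold at D3 in WT (background 11.4% and 9.53%), 7 and 5 in the KD-labelled line (11.5% and 8.86%), and 7 and 6 in AP3 (10.8% and 11.5%). In the limma fit over the 3 pairs, 8 of the 26 were higher and 4 lower. Against WT, 5 were higher and 1 lower in AP3 ESCs (6.8% and 5.49%), and 4 were higher and 0 lower in the KD-labelled EBs (3.23% and 4.53%). Plod2, a collagen lysyl hydroxylase, was at 18.3, 17.2 and 24.8 RPKM in ESCs and 34.5, 53.7 and 32.2 RPKM in EBs, in the order of P4ha1 at D3. Cited2, a HIF antagonist, was at 18.7, 13.5 and 17.3 RPKM and then at 29.5, 31.9 and 31.0 RPKM. Hmox1, heme oxygenase, was at 39.2, 39.3 and 39.0 RPKM in ESCs and 24.1, 25.2 and 41.6 RPKM in EBs, and Tfrc, the transferrin receptor, at 34.2, 58.4 and 50.9 RPKM at D3. Hmox1 was thus lower at D3 in WT and KD and level in AP3.

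Among 16 other genes of glycolysis, 10 had a mean of at least 1 RPKM, and of these 1 was higher and 1 lower at D3 in WT, and 2 and 1 in each of the KD-labelled and AP3 lines. Eno3, the muscle enolase, was at 9.30, 6.64 and 7.66 RPKM in ESCs and 18.0, 13.5 and 13.5 RPKM in EBs, higher in every line. Pgam2, the muscle mutase, was at 2.04, 2.43 and 1.79 RPKM and then at 0.566, 0.737 and 0.546 RPKM, lower in every line. The muscle forms of neighbouring steps thus went opposite ways. Bpgm, which makes 2,3-bisphosphoglycerate, was at 15.3 RPKM in AP3 EBs and between 9.17 and 10.7 RPKM in the other 5 libraries.

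Genes that take pyruvate into mitochondria and oxidise it numbered 11 in the table, of which 0, 1 and 0 were higher and 3, 1 and 2 lower at D3 in WT, KD and AP3. Brp44l, a subunit of the mitochondrial pyruvate carrier, was at 10.2, 6.03 and 18.2 RPKM in WT, KD and AP3 ESCs and at 6.60, 4.93 and 7.63 RPKM in the EBs. Pdha1, of pyruvate dehydrogenase, was at 119, 101 and 158 RPKM in ESCs and 124, 103 and 114 RPKM in EBs. Among the ESC libraries both were highest in AP3 and lowest in the KD-labelled library, the reverse of the order of Slc16a3, Slc2a1 and Pdk1. Pdp2, a pyruvate dehydrogenase phosphatase, was lower at D3 in every line (log2 changes of -0.78, -0.84 and -0.70), and Pcx, pyruvate carboxylase, lay between 3.04 and 5.48 RPKM.

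Of 7 genes of the pentose phosphate pathway, 0, 2 and 1 were higher and 0 lower at D3 in WT, KD and AP3. Rpia and Rpe, which interconvert pentose phosphates, were at 10.8 and 41.6 RPKM in AP3 ESCs, each past 1.5-fold above the KD-labelled library. Of 6 genes of MYC and glucose sensing, 0 were higher at D3 in any line and 3, 2 and 2 were lower. Txnip, an inhibitor of glucose uptake, was at 157, 97.9 and 226 RPKM in WT, KD and AP3 ESCs and at 149, 118 and 102 RPKM in the EBs. Arrdc4, its relative, was at 23.4, 19.98 and 33.9 RPKM in ESCs and 23.6, 27.9 and 18.9 RPKM in EBs, again highest in AP3 at D0 and lowest at D3. Myc was at 6.50, 6.35 and 6.59 RPKM in ESCs and 1.70, 2.25 and 5.61 RPKM in EBs, so that the AP3 EBs stayed near the ESC level. Mycn was at 58.5, 63.9 and 36.9 RPKM in ESCs and between 34.5 and 37.4 RPKM in EBs.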

How the data were processed

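RNA was measured by poly(A)-selected, single-end RNA-Seq in 6 libraries, 1 for each line and day. Per the methods and the submitters' processing notes, the authors aligned reads to mm9 with TopHat and Bowtie (0.12.7), let a read match several places, and quantified genes with Cufflinks (1.3.0). The deposited values are RPKM, already scaled to mapped reads and transcript length. The authors also deposited log2 fold change columns, which were not used here. From the RPKM, log2((value + 0.001)/(value + 0.001)) was computed for 9 comparisons over all 21639 entries. Genes past 1.5-fold were counted, beside the share of entries past it. With 1 library per condition, lines could not be tested against each other on 1 day. D3 against D0 was tested with limma (3.58.1, R 4.3.3, trended variance) on log2(RPKM + 0.001), with the line as a block over 3 pairs and 2 residual degrees of freedom, for entries whose mean reached 1 RPKM. The same model, with the day as the block, tested the lines as means over both days. These fits were added after seeing the data.

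The members, role groups and lists were chosen with earlier results of these data known. Members were described by role group. Those past 1.5-fold between lines, or between days in every line or in 1 line alone, were given their values. Of the other lists, up to 4 genes meeting a like rule were named, highest mean first.

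The table holds no counts. Depth was estimated from the smallest steps of RPKM times length over 3696 genes with a single transcript longer than 1500 bases. The estimator was changed once, after its first version gave an implausible depth for one library, so the depths are approximate. The 95% intervals (exact, from estimated reads, members with a mean under 5 RPKM) cover counting error only. Promoter windows are of RefSeq on GRCm38.p6. Calculations used Python 3.11.15, pandas 2.3.3, numpy 2.4.6 and scipy 1.17.1, and were tested on simulated data. The alternatives were pseudocounts of 0.1 and 1, a minimum mean of 1 RPKM, centring on the median of entries with that mean and scaling to summed RPKM.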

Additional observations from a re-analysis of the deposited data

Results flagged for a closer look

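Members of the set that were past 1.5-fold in opposite directions under the same contrast numbered 3 of 37 (8.11%), where 13% of all entries and 3.89% of those with a mean of at least 1 RPKM did the same. Eno2 differed between the AP3 and WT lines by 0.92 on the log2 scale in ESCs and by -0.84 in EBs, and between AP3 and the KD-labelled library by 0.67 and -0.68. Adm differed between AP3 and the KD-labelled library by 0.94 in ESCs and by -1.02 in EBs, at low levels (95% counting intervals of the ratio 1.31 to 2.87 and 0.357 to 0.684). Pfkfb3 differed between D3 and D0 by 0.64 in the line labelled H2A.Z KD and by -0.62 in the AP3 line. With 1 library per condition, none of these differences of differences was tested. With a pseudocount of 1 RPKM, the Pfkfb3 values were 0.54 and -0.50 and those of Eno2 against the KD-labelled library 0.53 and -0.56, short of 1.5-fold.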

How the results depend on the processing

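Contrasts between lines have 1 library a side, so no replicate could be left out. The limma fit of D3 against D0 with the line as a replicate block was added after seeing the data; without the block it called 18 of 35 genes higher and 1 lower, in place of 17 and 1, with Hk2 lost and Hk1 and Pkm2 gained. Leaving out the WT line moved its 18 calls to 4 and leaving out the KD-labelled line to 9. The other alternatives gave between 12 and 19. Over both directions together, every count of the 37 genes past 1.5-fold stayed within 1.5 times its value, and no direction was reversed, under the 5 alternatives. Counts in 1 direction moved more in some cases: with a pseudocount of 1, those of AP3 against WT went from 5 higher and 4 lower to 5 and 2 in ESCs and from 1 and 2 to 1 and 1 in EBs, and those of AP3 against the KD-labelled library in ESCs from 4 and 7 to 2 and 6. Pfkfb4, the 1 gene lower at D3 in WT, fell short with either pseudocount. Scaling each library to its summed RPKM moved the median of the 37 genes at D3 against D0 in WT from 0.52 to 0.38, and that of AP3 against the KD-labelled library at D3 from -0.15 to -0.26. The same scaling moved the median of entries with a mean of at least 1 RPKM from 0.04 to -0.10 and from 0.02 to -0.08 in these comparisons. Of 92 changes past 1.5-fold, 87 stayed past it after centring on the median of entries with a mean of at least 1 RPKM, 89 and 79 with pseudocounts of 0.1 and 1, and 82 after scaling; the minimum mean of 1 RPKM left 90 of them and changes no value. P4ha1 in the AP3 line at D3 fell short under centring (0.56), scaling (0.51) and a pseudocount of 1 (0.58), and 6 genes were then higher in every line. Other day changes that fell short under centring or scaling were those of Slc2a3 and Eno1 in WT, of Slc2a3 and Pgk1 in the KD-labelled line, and of Pdk1 and Gpi1 in AP3. The alternatives to the count of genes higher in every line were chosen after seeing the data. So were the tests between lines over both days, which called 0 of the genes also without the day block, with either pseudocount, with no minimum mean and after scaling. Depth limits Pfkfb4, Car9, Adm and Ankrd37, each with at most 134 estimated reads in a library.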
